A study of Rattus norvegicus with 11 samples.

Results

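The miR-15/16 family is a set of related miRNAs, and 6 of its rat members, miR-15b, miR-16, miR-195, miR-497, miR-322 and miR-503, were followed here in pancreatic islets. They were chosen by name, as the stems of these 6 on the arrays with no star name and with a place on both array designs, a naming rule that uses no measured value. They are 6 of 340 miRNA names that both designs share. Of the 6, 5 were among the 152 miRNAs detected on at least 5 arrays and tested, and miR-503 was not.

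The islets came from female Sprague Dawley rats aged 13 weeks that ate standard chow after weaning at 3 weeks. The groups were set by the fathers' diet: the HFD group's fathers were given pellets holding 43% fat and the Control group's were kept on chow holding 9%, and all were mated at 15 weeks with normal chow-fed females. There were 11 arrays, 6 Control and 5 HFD. Each array holds a sample with a number of its own in the labels, and which daughters shared a father or litter is not known from the labels used here, so p-values measure the spread between these samples. A first array design held Control 602, 613, 615 and 639 and HFD 603, 607, 644 and 653, and a second held Control 635 and 652 and HFD 640. The comparison asks whether family levels in the daughters' islets differed with the father's diet.

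miRNAs lower the output of mRNAs that pair with their seed, bases 2 to 8 of the mature strand. The miR-15/16 family is known for restraining the cell cycle, through targets such as cyclins D1 and E1, and for lowering the survival factor BCL2. Its members are made in pairs, each pair cut from neighbouring hairpins. In the pancreas, family members have been studied for their effect on beta-cell regeneration.

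The mature strands are shown because the members are alike at the seed, while the rest of each strand decides how well 1 member's probe could bind another member. The files name the strands without an arm (miR-16, with miR-16* for the other arm), and these names were matched to the 5p strands of RefSeq in the GRCr8 assembly, with all 6 matched. Capitals mark the seed.
miR-15b-5p: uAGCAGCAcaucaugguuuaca
miR-16-5p: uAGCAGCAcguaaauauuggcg
miR-195-5p: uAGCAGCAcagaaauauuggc
miR-497-5p: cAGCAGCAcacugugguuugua
miR-322-5p: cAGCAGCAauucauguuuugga
miR-503-5p: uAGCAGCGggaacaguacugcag
The seed AGCAGCA was shared by 5 of the 6 members, and miR-503 had AGCAGCG, which differs at its last base. Here miR-503 is counted as a member by the naming rule. Outside the seed the members differed. miR-16 and miR-195 were the most alike, with 19 of 21 compared bases identical when aligned from the first base (90.5%), whereas miR-195 and miR-497 shared 12 of 21 (57.1%) and miR-15b and miR-16 14 of 22 (63.6%).

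Each pair lies together in the GRCr8 assembly. The mature strand of miR-15b is at chr2:155555197-155555218 and that of miR-16 at chr2:155555343-155555364, both on the plus strand and within the span of Smc4, which encodes a condensin subunit, with 51 bases between the hairpins. miR-497 is at chr10:55450172-55450193 and miR-195 at chr10:55450509-55450529, on the plus strand, with 255 bases between their hairpins and no annotated gene spanning them. miR-503 is at chrX:137725899-137725921 and miR-322 at chrX:137726198-137726219, on the minus strand, with 220 bases between the hairpins, within the span of the lncRNA gene LOC102550366. Whether these places are intronic or exonic was not read, since the table used gives gene spans and no exons.

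Of the endocrine miRNAs, miR-375, the leading one, and miR-7a were detected on all 11 arrays, as the islet label requires. So were the acinar miR-216a, the endothelial miR-126 and the smooth muscle miR-143. Detection alone therefore does not tell islets from other tissue. The number of shared miRNAs detected per array ran from 105 to 157 on the first design and from 130 to 184 on the second. HFD 653 stood apart, with the 105 and with a spread of negative control spots (SD) of 11.6, against 2.03 to 2.41 on the other first-design arrays. Diet differences, spreads and likeness of pattern in the family are given with and without it. All values below are scaled signal or its log2. Scaled signal is the intensity summed over the 2 probes of a miRNA and divided by the array's 75th percentile over the 85 miRNAs detected everywhere. The quotient was multiplied by the mean of that percentile over all 11 arrays. Levels are compared between arrays and not between members, because probes differ in how brightly they bind.

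No member of the family passed the test for a difference with the father's diet. In the limma fit over all 152 tested miRNAs, 0 of the 5 tested members passed an adjusted p of 0.05 and 0 had an unadjusted p under 0.05. Over all tested miRNAs 0 passed after adjustment (0% called) and 3 before it (1.97% called). The adjusted p of the members ran from 0.987 to 0.997. Groups without overlap within both designs were found for 0 members, against 1 of the 152 (0.658%). The 95% interval excluded a 2-fold difference in either direction for all 5 tested members, as for 123 of 152 (80.9%), and a 1.5-fold difference for 3, miR-15b, miR-16 and miR-195, as for 83 of 152 (54.6%).

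**Figure D1:**
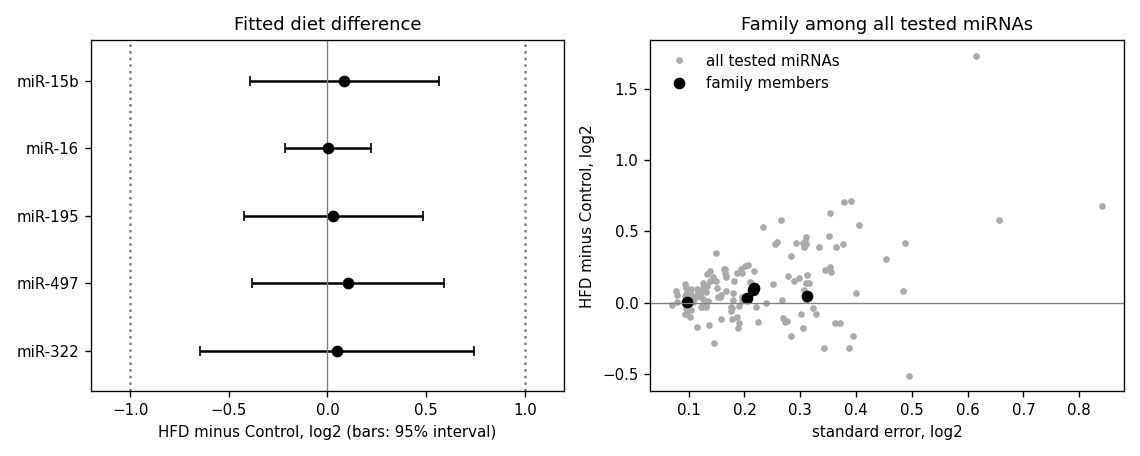
Left, the fitted HFD minus Control difference of each tested member on the log2 scale with its 95% interval, and dotted lines at a 2-fold difference. Right, each difference against its standard error for the 152 tested miRNAs (grey) and the 5 members (black). All 5 intervals span 0 and lie inside the dotted lines.

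All 5 tested members read slightly above 0 in HFD, but the same holds for 108 of the 152 tested miRNAs (71.1%), and without HFD 603 all 5 read below 0. The sign also depended on scaling: all 5 were above 0 with unscaled arrays, while 0 were with median scaling or when the 75th percentile was taken over every shared miRNA, and 1 was under quantile normalisation. The median of all tested miRNAs moved by -0.15, -0.21 and -0.14 under those 3 in turn. Against that median, which was 0.066 in the scaling used, the members stood at 0.020 for miR-15b, -0.063 for miR-16, -0.036 for miR-195, 0.039 for miR-497 and -0.017 for miR-322 on the log2 scale. The median difference of the 5 members was 0.049.

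**Figure D2:**
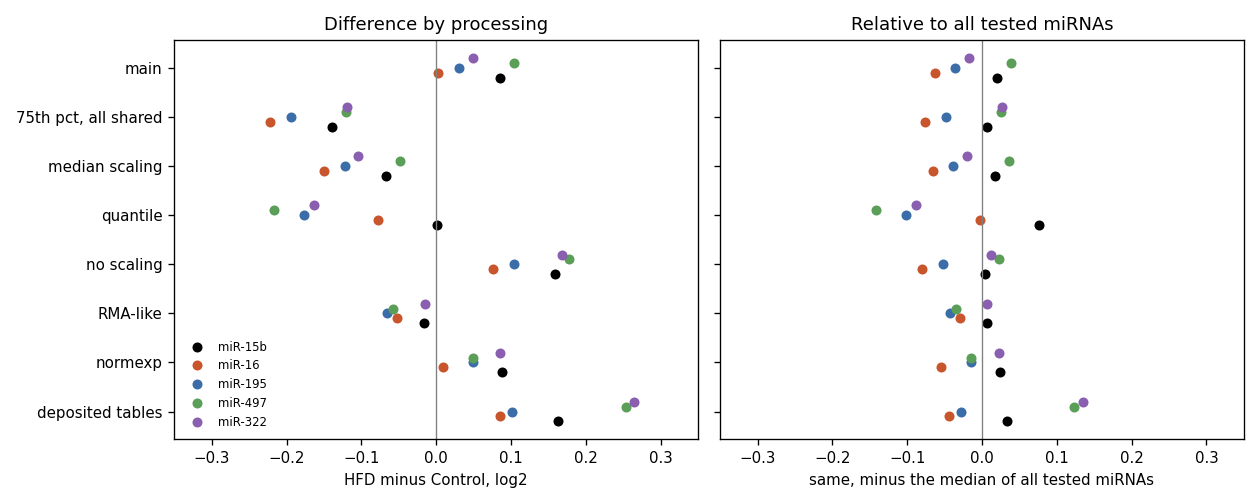
Left, the HFD minus Control difference (log2) of the 5 tested members under 8 ways of processing the arrays. Right, the same differences after subtracting the median of all tested miRNAs under each. On the left 5 members lie above 0 or 5 below it, except under quantile normalisation, where only miR-15b is above 0, and on the right they stay within 0.15 of 0.

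miR-16, which had the steadiest level of the 5 tested members, was detected on all 11 arrays. Its scaled signal was 1308, 1379, 1488 and 1314 on Control 602, 613, 615 and 639, and 1540, 1542, 1299.8 and 1190 on HFD 603, 607, 644 and 653. On the second design it was 930 and 949 on Control 635 and 652 and 918 on HFD 640. The groups overlap on the first design, where HFD arrays hold both the highest and the lowest values. In log2 the first-design levels were 10.42 ± 0.086 in Control and 10.43 ± 0.19 in HFD (SD, n = 4 each). The fitted difference was 0.0029 ± 0.097 (SE), and its 95% interval ran from 0.863 to 1.16-fold (limma adjusted p = 0.997; 2-sided exact permutation within array design, p = 0.962). The difference was below 0 without Control 602 (-0.015), Control 639 (-0.013), HFD 603 (-0.035) or HFD 607 (-0.036), and 0.054 without HFD 653.

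miR-15b, cut from the hairpin beside that of miR-16, was also detected on all 11 arrays. Its scaled signal was 202 on Control 602, 197 on Control 613, 183 on Control 615 and 180 on Control 639. It was 358 on HFD 603, 221 on HFD 607, 166 on HFD 644 and 136 on HFD 653, and on the second design 154 and 157 in Control and 156 in HFD. The 4 first-design Control arrays lie close together, and the 4 HFD arrays reach above and below them, with HFD 603 highest and HFD 653 lowest. The log2 levels on that design were 7.57 ± 0.081 in Control and 7.68 ± 0.61 in HFD (SD, n = 4 each). The fitted difference was 0.086 ± 0.22 (SE), 1.06-fold with an interval of 0.761 to 1.48-fold (limma adjusted p = 0.987; 2-sided exact permutation p = 0.752). It was -0.11 without HFD 603 and 0.23 without HFD 653. The 7 spots of 20 that were well above background on HFD 653 compare with 13 to 20 on the other arrays.

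On HFD 603, where miR-15b was highest, miR-150, miR-142-3p and the undetected miR-142-5p, of the 5 listed leukocyte miRNAs, stood above the other first-design arrays. miR-150 reached 229.7 on HFD 603, while the other first-design arrays gave 10.4 to 78.2 (scaled signal). miR-142-3p reached 112 there, with 3.40 to 9.39 on the others. The tested miR-223 and miR-342-3p were highest on HFD 653 instead, where miR-15b was lowest, at 49.7 and 319 against 28.8 and 289.7 on HFD 603. On the first design the summed leukocyte list ran from 205 to 295 among Control arrays and from 271 to 681 among HFD arrays. Much of that sum is miR-342-3p, at 170 to 260 in Control and 229 to 319 in HFD. On HFD 607 and 644 miR-150 read 27.6 and 14.7, with 10.4 to 13.8 in Control. There miR-142-3p read 3.40 and 4.74, with 3.57 to 8.58 in Control. miR-142-5p was detected on 0 arrays and read 21.0 on HFD 603, with -59.9 to -7.37 on the other first-design arrays. Of the red blood cell list, miR-451 passed detection on 3 arrays, all of the second design, and miR-144 on 0. The acinar marker miR-216a read 732 on HFD 603 and 679 on Control 602, where miR-15b was 202, and its lowest first-design value was 23.0 on Control 639. The other acinar miRNA on both designs, miR-217, read -14.5 on HFD 603. The part of other cell types in the miR-15b values was not tested.

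**Figure D3:**
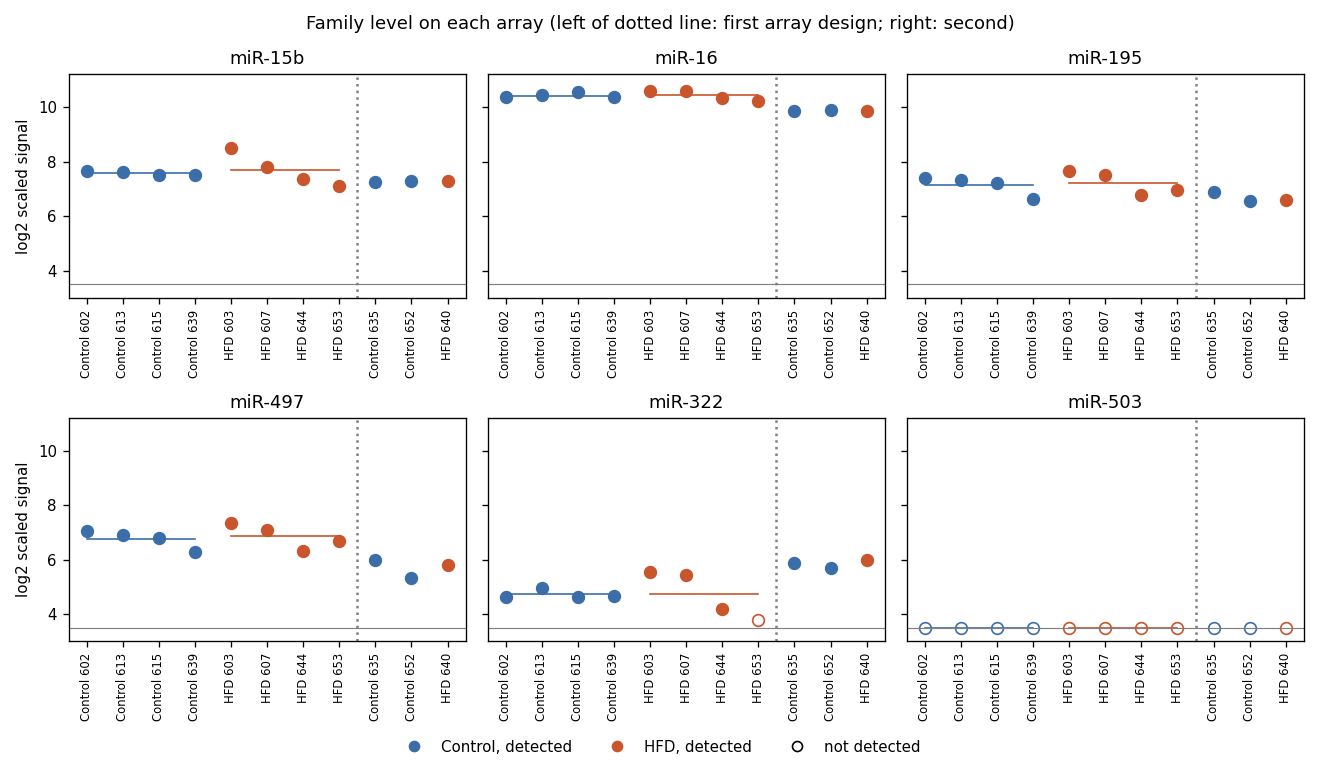
The log2 scaled signal of each member on each of the 11 arrays, with open circles where the miRNA was not detected, short lines at the first-design group means and a grey line at the floor of 3.49. Control (blue) and HFD (orange) overlap in every panel on the first design, miR-15b and miR-322 spread more widely in HFD, and miR-503 lies at the floor throughout.

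miR-195, the member closest to miR-16 in sequence, was detected on all 11 arrays. Its scaled signal was 167, 161, 150.3 and 98.5 on Control 602, 613, 615 and 639, and 203, 182, 108 and 126 on HFD 603, 607, 644 and 653. The second design gave 117 and 93.4 in Control and 95.4 in HFD. Both groups contain high and low arrays, with Control 639 and HFD 644 the lowest on the first design. In log2 its first-design level was 7.14 ± 0.35 in Control and 7.23 ± 0.43 in HFD (SD, n = 4 each). The fitted difference was 0.030 ± 0.20 (SE), 1.02-fold with an interval of 0.745 to 1.40-fold (limma adjusted p = 0.987; 2-sided exact permutation p = 0.890). It was -0.10 without Control 639, -0.081 without HFD 603, -0.044 without HFD 607 and 0.084 without HFD 653.

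miR-497, the partner of miR-195, was detected on all 11 arrays and ranked them in much the same way. Its scaled signal was 131, 118, 111 and 77.4 on Control 602, 613, 615 and 639, and 161, 135, 79.2 and 102 on HFD 603, 607, 644 and 653. On the second design it was 64.0 and 40.4 in Control and 55.1 in HFD. Again Control 639 and HFD 644 were lowest and HFD 603 and 607 highest on the first design. Its log2 level there was 6.75 ± 0.33 in Control and 6.85 ± 0.45 in HFD (SD, n = 4 each). The fitted difference was 0.10 ± 0.22 (SE), 1.08-fold, with an interval from -0.38 to 0.59 on the log2 scale (limma adjusted p = 0.987; 2-sided exact permutation p = 0.643). It was -0.011 without HFD 603, -0.0082 without Control 639 and 0.15 without HFD 653. Of the 20 miR-497 spots per array, 1 was well above background on HFD 653 and 1 on Control 635, with 10 to 19 on the other arrays.

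miR-322, the rat counterpart of human miR-424, was detected on 10 of 11 arrays. Its scaled signal was 24.5, 31.1, 24.9 and 25.5 on Control 602, 613, 615 and 639, and 46.4, 42.8, 18.0 and 13.6 on HFD 603, 607, 644 and 653, with HFD 653 the array without detection. The second design gave 59.0 and 51.2 in Control and 62.8 in HFD. Of the 20 miR-322 spots per array, 1 to 10 were well above background on the first design. On Control 635, Control 652 and HFD 640 the counts were 1, 16 and 20. The 13.6 on HFD 653 lies close to the floor of 11.3. Of the first-design arrays, 2 HFD arrays lie above each Control array and the other 2 below, so the group means are nearly equal. The log2 levels there were 4.72 ± 0.16 in Control and 4.72 ± 0.89 in HFD (SD, n = 4 each). The fitted difference was 0.049 ± 0.31 (SE), 1.03-fold with an interval of 0.640 to 1.67-fold (limma adjusted p = 0.987; 2-sided exact permutation p = 0.886). It was -0.14 without HFD 603, -0.11 without HFD 607 and 0.28 without HFD 653.

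miR-503, which is cut from the hairpin next to that of miR-322, was detected on 0 of 11 arrays. Of its 220 spots over all arrays 0 were well above background, and its summed signal before scaling was below 0 on every array, from -39.2 on HFD 653 to -0.969 on HFD 640. It had only a bound in both groups, so no fold was computed. The other miRNAs of the same X-chromosome cluster gave the same picture: miR-351, miR-542-3p, miR-542-5p and miR-450a, the 4 of 5 listed names on both designs, were detected on 0 arrays. The largest of their scaled signals was 102 for miR-351 on HFD 653, the array with the widest negative control spread. The arrays' star names of the family, 6 in all with 5 of them on the second design alone, were detected on 0 arrays.

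The diet differences were also compared between the array designs. On the first design alone they were 0.11 for miR-15b, 0.015 for miR-16, 0.084 for miR-195, 0.10 for miR-497 and 0.00071 for miR-322 on the log2 scale. With limma on that design 0 of 152 passed after adjustment (0% called) and 2 before it (1.32% called), with 0 members among them. On the second design, where 1 HFD array allowed values and no test, they were 0.011, -0.033, -0.13, 0.12 and 0.19 in the same order. The interaction of diet and design in limma called 0 of 152 miRNAs after adjustment (0% called) and 1 before it (0.658% called), and the members' adjusted p was 0.996.

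HFD daughters were more scattered than Control daughters in all 5 tested members on the first design, which is a description and was not tested. The SD of log2 level was 0.61 in HFD against 0.081 in Control for miR-15b and 0.89 against 0.16 for miR-322. On these arrays miR-322 had at most 10 of 20 spots well above background. It was 0.19 against 0.086 for miR-16, 0.43 against 0.35 for miR-195 and 0.45 against 0.33 for miR-497. Over all tested miRNAs the HFD SD was the larger for 88 of 152 (57.9%), with medians of 0.35 in HFD and 0.25 in Control. The HFD SD stayed the larger for all 5 members without HFD 603, where miR-15b had 0.35, beside 78 of 152 over all tested miRNAs (51.3%). It also did without HFD 653, where the HFD SD was 0.56 for miR-15b, 0.14 for miR-16, 0.49 for miR-195, 0.53 for miR-497 and 0.76 for miR-322. Without HFD 653 the HFD SD was the larger for 60 of 152 (39.5%).

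Partners from neighbouring hairpins can be compared within an array, where scaling between arrays cancels. Whether each pair comes from 1 transcript was not tested, and other places that could give the same mature strands were not looked up. miR-195 and miR-497 kept nearly the same ratio on all 8 first-design arrays: 1.27, 1.36, 1.36 and 1.27 on Control 602, 613, 615 and 639, and 1.26, 1.35, 1.37 and 1.23 on HFD 603, 607, 644 and 653. The SD of this ratio was 0.060 on the log2 scale, although each of the 2 miRNAs varied over more than 1 log2 unit across those arrays, from 6.62 to 7.66 for miR-195 and from 6.27 to 7.33 for miR-497. With the brighter probe of each alone the SD was 0.054, without HFD 653 it was 0.053 and without HFD 603 0.060. Over the 3570 pairs that 85 miRNAs detected on every array form, the median SD was 0.33, the 5th percentile 0.13, and 9 pairs (0.252%), this one included, had an SD of 0.060 or less. Between diets the log2 ratio differed by -0.074, with first-design means of 0.40 ± 0.053 for Control and 0.38 ± 0.073 for HFD (SD, n = 4 each; 2-sided exact permutation p = 0.395, adjusted over the 2 pairs tested p = 0.790). Without HFD 653 the difference was -0.062. On the second design the ratio was 1.83 and 2.31 in Control and 1.73 in HFD.

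The ratio of miR-15b to miR-16 was wider spread, mainly through HFD 603. The miR-15b signal was 0.155, 0.143, 0.123 and 0.137 of the miR-16 signal on Control 602, 613, 615 and 639, and 0.233, 0.143, 0.128 and 0.114 on HFD 603, 607, 644 and 653. HFD 603 stands above the rest and HFD 653 below, and the SD over the 8 arrays was 0.31 on the log2 scale, a value that 47.6% of the 3570 pairs reached or fell below. With the brighter probes alone it was 0.30 and without HFD 653 0.31, but without HFD 603 it was 0.15, which 10.4% of pairs reached or fell below on the same 7 arrays. The log2 ratio differed between diets by 0.083, with first-design means of -2.85 ± 0.14 for Control and -2.75 ± 0.45 for HFD (SD, n = 4 each; 2-sided exact permutation p = 0.790, adjusted over 2 pairs p = 0.790). Without HFD 603 the difference was -0.074, and without HFD 653 it was 0.17. The third pair was not compared because miR-503 was not detected.

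Sequence likeness and likeness of pattern, by the measure used here, did not run together in these pairs. The measure of likeness was the root mean square difference, over all 11 arrays, between the log2 deviations of 2 miRNAs from their design means. It counts the size of deviations as well as their direction. A steady and a variable miRNA therefore lie apart even where they rise and fall together. The members' own root mean square deviations were 0.11 for miR-16, 0.30 for miR-195, 0.33 for miR-497, 0.32 for miR-15b and 0.48 for miR-322. The difference was 0.11 for miR-195 and miR-497, which share 57.1% of their bases, and 0.24 for miR-16 and miR-195, which share 90.5%. The other pairs of tested members had values from 0.24 to 0.39. Without HFD 653 the values for the first 2 pairs were 0.11 and 0.26, and those of the other pairs ran from 0.22 to 0.32. Without HFD 603 those of the first 2 pairs were 0.11 and 0.23, and that of miR-15b and miR-16 fell from 0.25 to 0.12. Binding of 1 member to another's probes was not tested, and probe sequences were not analysed here.

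The miRNAs nearest in pattern outside the family differed between the pairs. For miR-195 they were miR-143 (0.16), miR-126 (0.16) and miR-100 (0.18), and for miR-497 the same 3, miR-143 (0.13), miR-100 (0.16) and miR-126 (0.18), out of 147 tested miRNAs outside the family. Of the 147, 0 were nearer to miR-195 or miR-497 than the other partner was, with or without HFD 653. Without HFD 653 the nearest 3 were miR-100, miR-10a-5p and miR-143 for miR-195 (0.11 to 0.14) and miR-100, miR-143 and miR-10a-5p for miR-497 (0.12 to 0.17). miR-100 was dim on the first design, with log2 levels at the floor on Control 639 (3.49) and just above it on HFD 644 (3.56). miR-143, abundant in smooth muscle and fibroblasts, had a scaled signal of 408, 413, 421 and 253 on Control 602, 613, 615 and 639, and 573, 540.3, 264 and 409 on HFD 603, 607, 644 and 653. miR-126, abundant in endothelium, had 482, 509, 551 and 426 on the same Control arrays and 674, 607, 384 and 474 on the HFD arrays. Like miR-195 and miR-497, both were highest on HFD 603 and 607 and lowest on Control 639 and HFD 644 among first-design arrays.

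Both belong to marker lists, whose sums they dominate. The 5 fibroblast and smooth muscle miRNAs, 3 of them tested, summed on the first design to 286 to 504 among Control and 296 to 649 among HFD arrays. Of that list miR-145 and miR-199a-5p were detected on 1 array each. The tested miR-199a-3p read 25.6, 48.9, 54.1 and 24.3 on Control 602, 613, 615 and 639, and 54.0, 43.3, 22.1 and 44.5 on HFD 603, 607, 644 and 653. It too was lowest on Control 639 and HFD 644, but Control 602 was nearly as low and Control 615 was highest. The tested miR-214 ran from -3.12 on HFD 653 to 25.3 on HFD 607 among those arrays. The 2 endothelial miRNAs, of which miR-126* was detected on the second design alone, so that the sum is close to miR-126 itself, summed to 427 to 552 in Control and 385 to 673 in HFD. The share of such cells in each preparation was not measured, fewer cells of a type and less miRNA per cell cannot be told apart in bulk islets, and their part in the miR-195 and miR-497 values was not tested.

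**Figure D4:**
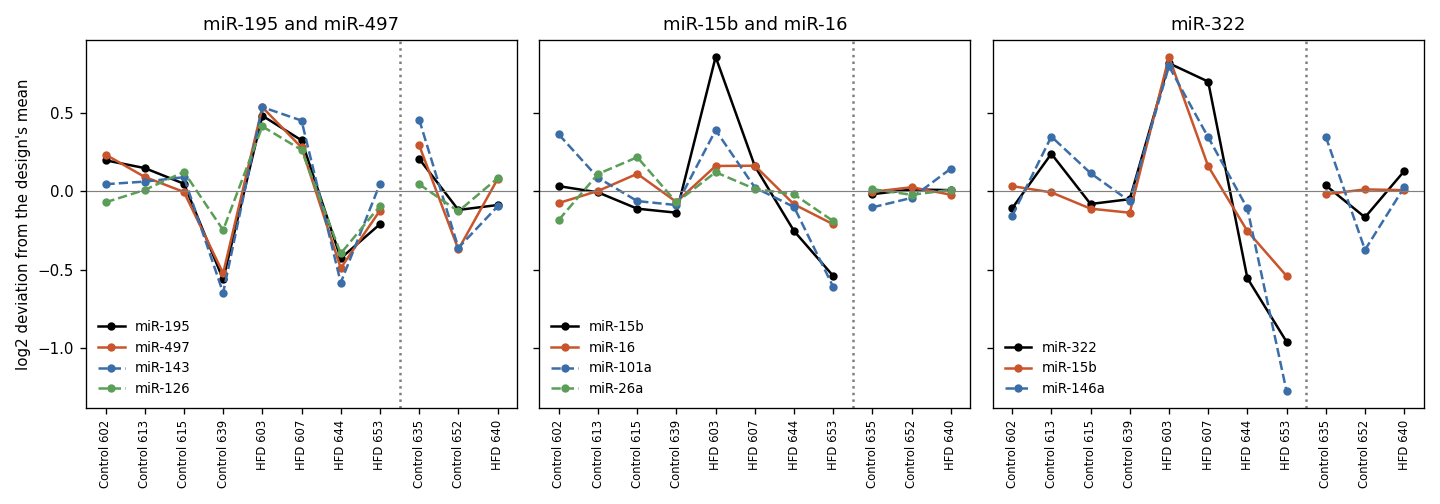
Log2 deviation of each miRNA from its mean over the arrays of the same design, with solid lines for family members and dashed lines for miRNAs outside the family. Lines only join the points of 1 miRNA, since the arrays have no order. miR-195 and miR-497 follow each other on the first-design arrays. miR-143 follows them except on HFD 653, where it lies above its mean and they lie below. miR-15b leaves miR-16 on HFD 603 and HFD 653. Of the family members miR-322 has the widest range, and the dashed miR-146a reaches lower on HFD 653.

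For miR-16 the nearest were miR-26a (0.077), miR-151 (0.079) and miR-125b-5p (0.098), and 61 of 147 lay nearer to it than any family member did. miR-16 itself deviated by only 0.11, so other steady miRNAs lie near it by this measure whatever their direction. For miR-15b the nearest were miR-101a (0.19), miR-338 (0.20) and miR-19b (0.21), with 4 nearer than the closest member, miR-195. For miR-322 the nearest was miR-146a (0.24), followed by miR-214 (0.31) and miR-101a (0.34), and the closest member was miR-15b (0.25). All 3 of miR-322, miR-146a and miR-214 are dim here. miR-146a lies at the floor on HFD 653, and miR-214 on 6 arrays, Control 639, HFD 644, HFD 653 and the 3 of the second design. These neighbours depended on HFD 653: without it the nearest were miR-23a (0.075) for miR-16, miR-10a-5p (0.12) for miR-15b and miR-126 (0.20) for miR-322.

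The same probes behaved differently on the 2 designs. Each member has 2 probes of 10 spots per array, the same on both designs. On the first design the brighter probe of miR-16 read 6.39 to 9.41 times the dimmer one, and on the second 1.77 to 1.93 times. For miR-15b the ranges were 5.25 to 8.71 and 1.11 to 1.23, and for miR-497 6.44 to 9.25 and 1.56 to 1.63. For miR-195 the first-design median was 5.14, the lowest 4.74, and the second-design range 1.64 to 1.94. For miR-322 the ranges were 2.22 to 5.24 and 1.59 to 1.66. The ranges do not overlap for any of the 5. Of the 78 miRNAs with 2 probes and detection on all arrays, the ratio was larger on the first design for 74 (94.9%), with a median of 4.22 there and 1.56 on the second. On HFD 653 the dimmer probes of miR-15b, miR-195 and miR-497 read below 0 and gave no ratio.

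**Figure D5:**
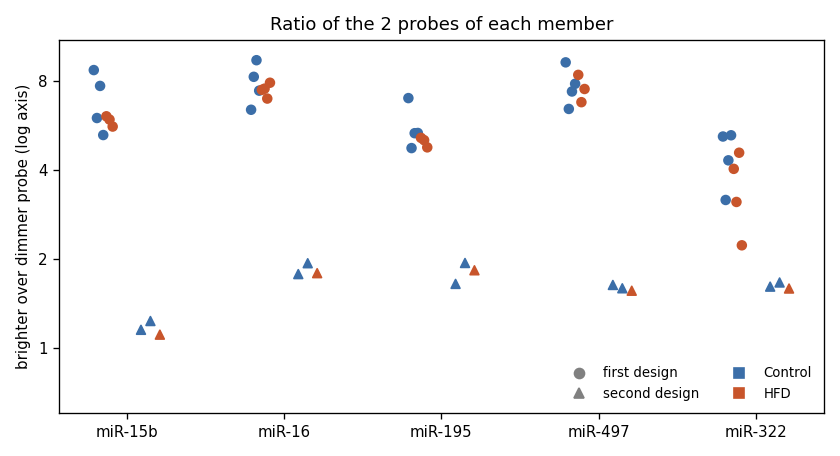
Signal of the brighter probe divided by that of the dimmer probe, on a log axis, for the 5 detected members on each array with both signals above 0, with circles for the first design, triangles for the second, blue for Control and orange for HFD. All second-design ratios lie under 2 and all first-design ratios above 2.

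Levels moved between designs by member. On the second design the mean log2 level was 1.12 higher for miR-322 and 1.09 lower for miR-497, and 0.35, 0.56 and 0.52 lower for miR-15b, miR-16 and miR-195. Design coincides with slide, scan and software version, so what moved these levels cannot be told apart, and diet was compared within each design.

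Relatives and other growth-linked miRNAs passed no test either. miR-103 and miR-107 carry AGCAGC 1 base earlier, at the first base of the strand, so that their seed reads GCAGCAU.
miR-103-3p: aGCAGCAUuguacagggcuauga
miR-107-3p: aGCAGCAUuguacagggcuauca
Both were tested, and their differences were -0.0027 ± 0.10 and 0.013 ± 0.11 on the log2 scale (SE). Of 16 other miRNAs listed for restraining the cell cycle, 13 were tested. In HFD 3 of these read higher and 10 lower, 0 were called and the median was -0.040, against 0.066 over all tested miRNAs. Of 13 growth-promoting miRNAs 7 were tested, 6 read higher and 1 lower, 0 were called and the median was 0.016. Among the 10, miR-26b holds the 75th percentile itself on the first design, so the scaling fixes it at 1118 on those 8 arrays. These directions hold for the scaling used.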

How the data were processed

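Per the labels' protocols, 100 ng of islet total RNA carried Cy3 on Agilent miRNA arrays read in 1 colour. The deposited spot intensity was written by Agilent Feature Extraction 10.5.1.1 (first design) or 10.7.3.1 (second), per the file headers, after background subtraction and with no scaling across arrays. The authors also deposited tables of log2 total signal, 1 per design (on the first, the values match the total signal plus 50), used as an alternative. The submitters' processing notes name RMA and Partek, with no role given.

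The processed intensity was averaged over spots without an outlier flag, summed over probes, scaled by the 75th percentile over 85 miRNAs detected on all arrays, floored at the 1st percentile of scaled detected values (11.3) and put on the log2 scale. HFD minus Control was fitted in limma 3.58.1 under R 4.3.3, array design being a block that coincides with slide, and tested 2-sided with Benjamini-Hochberg adjustment over 152 miRNAs detected on at least 5 arrays. Permutation used all 210 label orders within design, so the smallest p is 0.0048. The fit was tested on simulated data, with differences far larger than those of the members and the spread of the first-design Control arrays. It was not tested at differences as small, or HFD spreads as wide, as those seen in the family. No spot was saturated, and the number of arrays limits precision.

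Named were all 6 members, the 3 miRNAs nearest in pattern to each tested member, and relatives and markers from lists. Members, lists and alternatives were chosen with earlier results of these data known. Normexp used the median spot signal in place of the planned mean.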

Additional observations from a re-analysis of the deposited data

Results flagged for a closer look

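In the groups of 4 arrays on the first design, 14 groups (5 members and 2 partner ratios in 2 diets) were checked for 1 array far from the other 3, and Dixon's test at the 95% level singled out 1, when about 0.7 would come by chance. It was miR-322 in Control, where Control 613 read 4.96 against 4.61 to 4.67 on the other 3 arrays (log2 scaled signal), a ratio of gap to range of 0.832, just past the critical value for 4 arrays.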

How the results depend on the processing

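In the alternatives tried, 0 members passed an adjusted p of 0.05 (lowest 0.801) and 0 partner ratios reached p = 0.05 by exact permutation (lowest 0.176), while the count of calls over all miRNAs was 0 except with no scaling, where it was 1, no member of the family. Signs were less firm. With the 75th percentile over all shared miRNAs the differences were -0.14 for miR-15b, -0.22 for miR-16, -0.19 for miR-195, -0.12 for miR-497 and -0.12 for miR-322, with median scaling -0.067, -0.15, -0.12, -0.048 and -0.10, and with the RMA-like summary -0.016, -0.052, -0.065, -0.057 and -0.016. Quantile normalisation gave -0.078 for miR-16, -0.18 for miR-195, -0.22 for miR-497, -0.16 for miR-322 and 0.040 for the ratio of miR-195 to miR-497. The median over probes gave -0.0020 for miR-15b, -0.079 for miR-195 and -0.026 for the ratio of miR-15b to miR-16. The brighter probe alone, chosen after seeing the data, gave -0.0060 for miR-16, and the fit without the design block -0.10 for miR-322. The size for the dim miR-322, 0.049 in the scaling used, also moved upward in some settings. It was 0.212 with the floor at the 5th percentile, 0.231 with outlier spots kept and 0.265 with the authors' log2 tables. Leaving out single arrays gave -0.11 to 0.23 for miR-15b, -0.036 to 0.054 for miR-16, -0.10 to 0.14 for miR-195, -0.011 to 0.23 for miR-497 and -0.14 to 0.28 for miR-322, and -0.074 to 0.17 and -0.098 to -0.016 for the ratios of miR-15b to miR-16 and of miR-195 to miR-497. The cause was not tested. The spread of ratios and the likeness without HFD 603 or HFD 653 were also added after seeing the data. Requiring detection on all 11 arrays leaves miR-322 out. No paired analysis was possible because the groups share no sample numbers.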
